A study of Arabis alpina with 19 samples.

Results

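The first internode of the perennial zone at 7 weeks was compared with a short internode of the annual zone at 30 weeks, in lateral stems of Arabis alpina. The comparison took in 7 of the 19 RNA libraries of the series, chosen by their labels: 3 of the 7-week perennial zone (III_PZ) and 4 of the short annual internode (IV_AZ_si). All groups carried the genotype perpetual flowering 1-1 (pep1-1), and all plants grew in long days, so no wild-type control entered any value given here. The lateral stems came from the lowest nodes of the main axis, whole internodes were taken, and 12 plants were pooled per replicate. The other groups, used here for description, were the perennial zone at 4 weeks (I_PZ), 5 weeks (II_PZ) and 30 weeks (IV_PZ) and an internode of the 30-week annual zone near the inflorescence (IV_AZ_if), with 3 libraries each. The 7-week group was younger and from the other zone, so age and zone cannot be told apart in any difference between III_PZ and IV_AZ_si.

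Arabis alpina is a perennial relative of Arabidopsis. PEP1, the orthologue of the Arabidopsis flowering repressor FLC, limits flowering to part of the shoots, and pep1 mutants flower without a cold period. In a flowering lateral stem the lower perennial zone persists, thickens by secondary growth and stores reserves, while the annual zone above it bears the inflorescence and dies after seed set. Secondary growth is the production of wood and bast by the cambium, a dividing cell layer on which the hormone cytokinin is known to act. The files pair no transcript target with a gene name, so the targets are given by identifier without a role, and the labelled tissue could not be checked against marker genes.

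Each library held 21032841 to 27999048 estimated counts over the series and 21522541 to 27314330 over the 7 libraries compared. Between 23939 and 25054 targets had a count in III_PZ and between 24249 and 24814 in IV_AZ_si. The labels call the libraries of a group biological replicates. The edgeR p-values and standard errors measure the spread among these pooled samples within all 6 groups, also those outside the comparison. The series text gives 3 replicates per stage, whereas IV_AZ_si has 4 libraries. I_PZ replicate 3, a library outside the comparison, held many transcripts of III_PZ that were missing from I_PZ replicates 1 and 2, which shows in several I_PZ values given here.

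IV_AZ_si replicate 2 stood apart from its group in the direction of the 30-week perennial zone. The distance between 2 libraries was taken as the share of the TPM (the abundance per length, scaled to a fixed total within a library) that would have to be reassigned to make them equal. Replicate 2 lay at 25.4% to 26.1% from the 3 IV_PZ libraries, against 27.8% to 30.5% for the other IV_AZ_si libraries. It lay at 23.9% to 25.3% from IV_AZ_if, against 19.2% to 22.8% for the others. From its own group mates it differed by a mean of 9.41%, against 8.09%, 8.03% and 8.61% for replicates 1, 3 and 4. Its distance to replicate 4 was 10.9%, the largest within the group, and to replicates 1 and 3 it was 8.72% and 8.59%. Results are therefore given with all 7 libraries and without replicate 2.

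**Figure D1:**
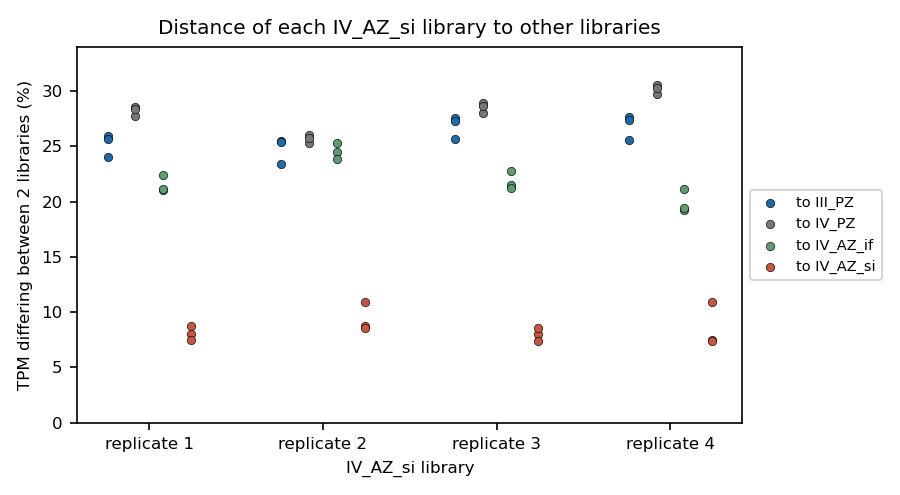
Share of TPM (%) differing between each IV_AZ_si library (horizontal axis) and every library of III_PZ, IV_PZ, IV_AZ_if and its own group, 1 point per pair of libraries. Replicate 2 lies nearest to IV_PZ of the 4 (mean 25.7%) and farthest from IV_AZ_if (24.6%), while replicate 4 lies farthest from IV_PZ (30.2%) and nearest to IV_AZ_if (19.9%).

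The transcript pools of the 7-week perennial zone and the short annual internode were clearly separate. The mean distance over the 12 pairs of libraries was 25.9% of the TPM, with a range from 23.4% to 27.7%. Without IV_AZ_si replicate 2 it was 26.3% over 9 pairs. Within groups the mean was 7.83% among the III_PZ libraries and 8.53% among the IV_AZ_si libraries, so that every pair across the groups was farther apart than any pair within them. III_PZ replicate 2 was the closest of its group to IV_AZ_si, at a mean of 24.7%, against 26.7% for replicate 1 and 26.4% for replicate 3. By mean distance, IV_AZ_si was the nearest other group for every III_PZ library. For III_PZ replicates 1, 2 and 3 the means were 30.0%, 27.5% and 30.5% to IV_PZ and 29.9%, 30.2% and 29.7% to II_PZ. To I_PZ and IV_AZ_if they ran from 32.5% to 34.2%. Libraries of whole internodes do not separate fewer cells of a type from less RNA per cell, and TPM is relative within a library.

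Of 23528 targets tested with edgeR's quasi-likelihood test, 11103 (47.2%) differed at an adjusted p under 0.05, 5096 higher in III_PZ (21.7%) and 6007 lower (25.5%). Without IV_AZ_si replicate 2 the counts were 4855 higher (20.7%) and 5759 lower (24.6%) of 23458 tested. With and without that library, 10219 targets were called in both fits, 884 only with it and 395 only without it, and 0 changed direction. The 3 III_PZ and 4 IV_AZ_si libraries did not overlap in TPM for 50.8% of the tested targets (26.6% higher and 24.2% lower in III_PZ). Without replicate 2 this share was 56% (29.2% higher and 26.8% lower). Which direction held more calls depended on the fit: with RLE size factors 5539 were higher and 5500 lower, and with size factors of the TPM scale 5617 and 5239. Without I_PZ replicate 3, outside the comparison, they were 5529 and 5442, and in 13 of 19 alternatives the higher calls were the more numerous. The median log2 fold change of all tested targets was -0.047 under TMM scaling, -0.006 under RLE and 0.006 on the TPM scale.

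Most differences were small, and the large ones were more often toward III_PZ. At least 2-fold differences numbered 2547 higher (10.8%) and 2259 lower (9.6%). Of the 23528 targets tested, 1240 were at least 4-fold higher and 1063 lower. At 8-fold there were 741 and 570 of the 23528, and at 16-fold 428 and 311. At 32-fold the counts were 212 and 193 of 23528 with all libraries, and 317 and 191 of 23458 without IV_AZ_si replicate 2. Leaving out that library moved the count at least 32-fold higher from 212 to 317, and the count at least 2-fold higher from 2547 to 2551 (10.9% of those tested), with 2277 lower (9.71%).

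**Figure D2:**
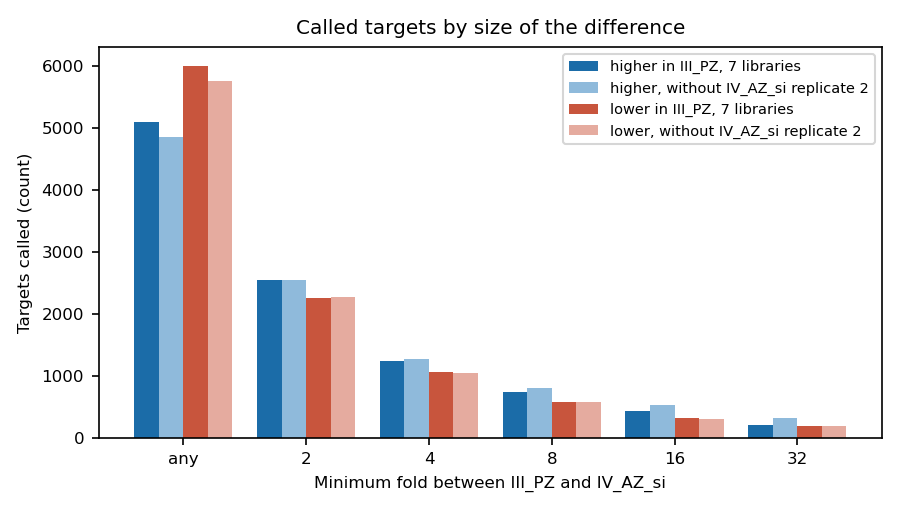
Number of called targets (adjusted p under 0.05, edgeR) at increasing minimum fold differences, for targets higher and lower in III_PZ, with all 7 libraries (dark bars) and without IV_AZ_si replicate 2 (light bars). The light bars exceed the dark ones most among targets at least 16-fold (527 against 428) and 32-fold (317 against 212) higher in III_PZ.

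The calls shifted with transcript abundance. Among the 1746 tested targets with a mean of at least 100 TPM, 16.8% were higher in III_PZ and 38.8% lower, with a median log2 fold change of -0.18. Among the 4127 targets between 1 and 5 TPM, 25.8% were higher and 19.3% lower, with a median of 0.07. The size of the difference ran the other way, with a median absolute log2 fold change of 1.26 below 1 TPM and 0.36 at 100 TPM or more. By coding length, 6.53% of targets under 300 bases were called higher and 12.0% lower, against 27.5% and 24.4% of those of 2400 bases or more. These classes differ in counts per target, and the part of that in the shares called was not tested. All class values come from the fit with TMM scaling, and whether they hold under other scalings was not tested.

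**Figure D3:**
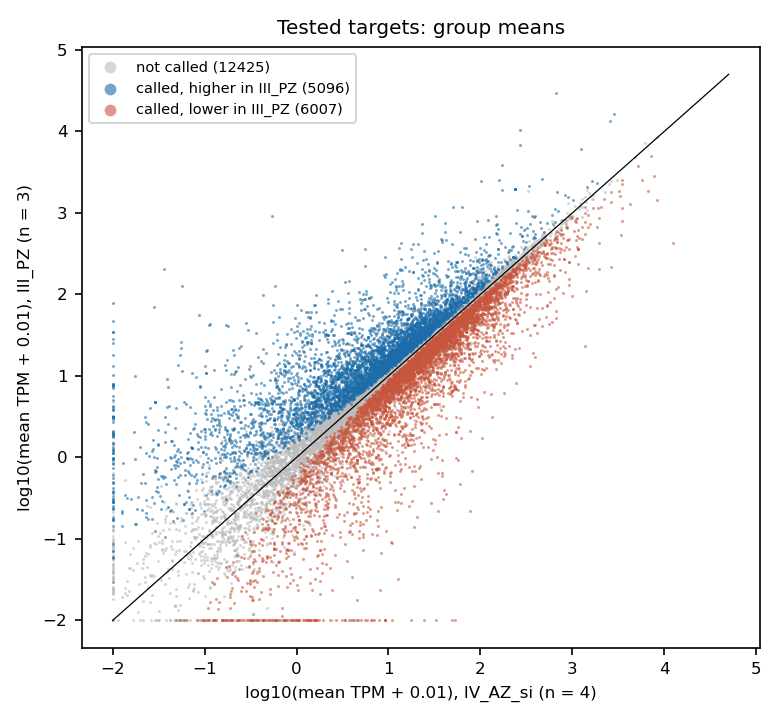
Mean TPM of each tested target in IV_AZ_si (horizontal, n = 4) and III_PZ (vertical, n = 3), both as log10(mean TPM + 0.01), with called targets (TMM scaling) coloured by direction. Points on the left and lower edges have no count in 1 of the groups, and the targets called lower outnumber those called higher at high abundance (38.8% against 16.8% of targets with at least 100 TPM).

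Summed over the targets called higher, the share of the TPM was 32.2% ± 1.9 in III_PZ (SD, n = 3) and 11.1% ± 0.82 in IV_AZ_si (SD, n = 4). IV_AZ_si replicate 2 held 12.1% in these targets and its group mates 11.4%, 10.4% and 10.4%. Between the group means, 4 of the targets called higher gained 6.37 percentage points of the TPM. Of these 4, 3 were under 300 bases, so their TPM rests on effective lengths of a few bases. The targets called lower took 24.3% ± 0.48 (SD, n = 3) in III_PZ and 45.8% ± 1.6 (SD, n = 4) in IV_AZ_si, with 43.9% in replicate 2. The contrast chose these targets, so their shares in the pair of groups are a description. In groups the contrast did not use, the targets called higher held 16.5% ± 0.34 in IV_PZ, 21.1% ± 0.84 in II_PZ, 19.3% ± 0.65 in I_PZ and 12.6% ± 0.42 in IV_AZ_if (SD, n = 3 each). The targets called lower held 46.9% ± 1.2 in IV_AZ_if, 33.1% ± 0.76 in IV_PZ, 36.8% ± 0.35 in II_PZ and 33.2% ± 0.05 in I_PZ (SD, n = 3 each). In both sets IV_PZ lay between the groups compared, nearer to IV_AZ_si in the targets called higher and nearer to III_PZ in those called lower. I_PZ and II_PZ also lay between them in both sets. Choosing targets on the groups compared favours such a place for any other group.

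**Figure D4:**
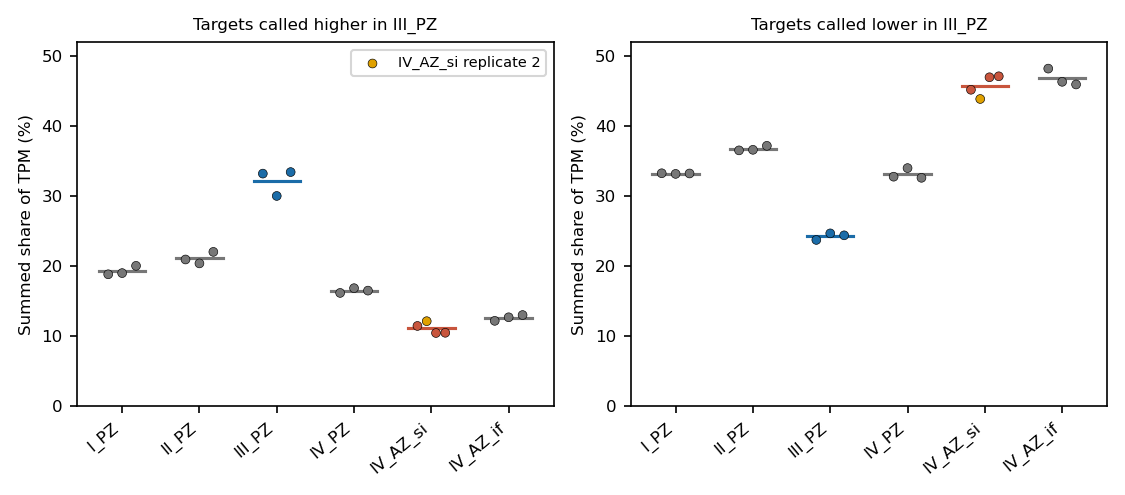
Summed share of the TPM (%) held by the 5096 targets called higher (left) and the 6007 called lower (right) in III_PZ, for each of the 19 libraries by group, with the group mean as a line and IV_AZ_si replicate 2 in yellow. The targets called higher reach 30.0% to 33.4% in III_PZ and 10.4% to 12.1% in IV_AZ_si, and those called lower have a mean of 46.9% in IV_AZ_if and 45.8% in IV_AZ_si.

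Among the largest differences, 7-week transcripts were mostly at their highest in III_PZ, while those of the annual internode were shared with the internode near the inflorescence. The 428 targets at least 16-fold higher took 7.05% of the TPM in III_PZ and 0.206% in IV_AZ_si. They held 5.00% in II_PZ, 2.16% in I_PZ, 1.27% in IV_PZ and 0.540% in IV_AZ_if. Most of the share in III_PZ, II_PZ and I_PZ lay in Aa_G1107360.h1 and Aa_G331030.h1, with means of 29777 and 10381 TPM in III_PZ. The TPM of Aa_G1107360.h1 rests on an effective length of 8.65 bases. The median of the 428 targets in III_PZ was 5.06 TPM. Of the 428, III_PZ had the highest mean of the 6 groups for 324, IV_PZ for 50 and I_PZ for 35. Of all 5096 targets called higher, III_PZ had it for 2624. These targets were chosen as higher in III_PZ than in IV_AZ_si, which favours III_PZ and keeps IV_AZ_si from being highest. The 311 targets at least 16-fold lower took 1.84% in IV_AZ_si and 0.0593% in III_PZ, with 1.94% in IV_AZ_if, 1.25% in II_PZ and 0.0822% in IV_PZ. The highest mean of the 311 was in IV_AZ_si for 141 and in IV_AZ_if for 109, against 2048 and 1506 of all 6007 called lower. Here the choice favours IV_AZ_si in the same way.

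For the largest fold toward III_PZ, replicate 2 was the IV_AZ_si library with the highest residual level. When each IV_AZ_si library was left out of the fit in turn, the targets then at least 16-fold higher in III_PZ were read in the library left out. Replicate 2 exceeded all 3 of its mates in 322 of 527 such targets (61.1%). Replicate 1 did so in 90 of 422 (21.3%), replicate 3 in 89 of 404 (22.0%) and replicate 4 in 60 of 389 (15.4%). These targets summed to 0.556% of the TPM in replicate 2 against a mean of 0.193% in its mates, and to 8.06% in III_PZ. For targets at least 16-fold lower, replicate 2 was below all its mates in 133 of 303 (43.9%), and the other libraries in 20.9% to 27.5%. Choosing targets on its mates favours a place beyond them for whichever library was left out, so these shares are a description.

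The targets with the largest fold toward III_PZ were nearly without counts in the annual internode. Aa_G101340.h1 had 202, 182 and 223 TPM in the III_PZ libraries. In IV_AZ_si it had 0.105 TPM in replicate 2, on 6 counts, and no count in replicates 1, 3 and 4. The groups did not overlap, and the log2 fold change was 12.80 ± 1.91 (SE; adjusted p = 4.69e-05, edgeR quasi-likelihood test). Without replicate 2 the difference was at least 11737-fold, taking 3 counts over the whole group as the floor. IV_PZ held 7.81 ± 2.24 TPM (SD, n = 3), II_PZ had no count, and I_PZ replicate 3 had 38.9 TPM where its mates had none.

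Aa_G357370.h1 had 30.0, 29.2 and 25.7 TPM in III_PZ and no count in any IV_AZ_si or IV_PZ library, a difference of at least 580-fold from IV_AZ_si (adjusted p = 0.000448, edgeR). Aa_G114890.h1 had 16.4, 9.95 and 4.72 TPM in III_PZ, no count in the 10 libraries of the 30-week groups, and at most 0.139 TPM at 4 and 5 weeks. Its bound was at least 559-fold (adjusted p = 1.49e-05, edgeR). It was thus nearly limited to the 7-week libraries in these data, with a spread of over 3-fold among them. Aa_G103310.h1, which shares reads with other targets, had 110, 69.3 and 32.9 TPM in III_PZ against 0, 0.0393, 0 and 0.0335 in IV_AZ_si. Its log2 fold change was 11.64 ± 1.39 (SE; adjusted p = 4.77e-06, edgeR) and 12.16 without replicate 2. Aa_G105820.h1 (10.1, 7.86 and 5.44 TPM) and Aa_G751070.h1 (40.8, 28.5 and 34 TPM, shared reads) likewise had no count in IV_AZ_si or IV_PZ, with bounds of at least 508-fold and 492-fold. Aa_G751070.h1 missed the threshold in DESeq2 (adjusted p = 0.0524), with a range of 5.75e-08 to 0.0524 over its 18 alternatives.

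A few targets, most of them short, made up a large part of the gain in abundance toward III_PZ. The 4 targets with the largest TPM difference made up 26.1% of the summed gain, and 3 of them were under 300 bases. The first 100 made up 55.7%, and 33 of those were under 300 bases. In the other direction the first 4 made up 11.7% and the first 100 made up 43.6%. Targets under 300 bases held 32.9% ± 0.54 of the TPM in III_PZ (SD, n = 3) and 28.2% ± 0.61 in IV_AZ_si (SD, n = 4). The shortest targets have effective lengths of a few bases in the deposited files, which turns few counts into a high TPM, so their levels rest on that length.

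Aa_G1107360.h1, of 165 bases with an effective length of 8.65, was the most abundant of them. It had 33585, 21575 and 34172 TPM in III_PZ against 600, 1263, 334 and 485 in IV_AZ_si, where replicate 2 was the highest. The groups did not overlap, with a log2 fold change of 5.43 with an SE of 0.36 (adjusted p = 2.73e-09, edgeR), and of 5.92 without replicate 2. Aa_G331030.h1, of 402 bases, followed it with 11830, 7476 and 11837 TPM in III_PZ against 276, 505, 127 and 173 in IV_AZ_si. The log2 fold change was 5.22 ± 0.40 (SE; adjusted p = 1.42e-08, edgeR), and 5.71 without replicate 2. The ratio of their TPM stayed between 2.17 and 3.46 in all 19 libraries, while the level of Aa_G1107360.h1 spanned 135-fold. Both were also high in II_PZ, at 33965 ± 10435 and 11028 ± 3573 TPM (SD, n = 3), and lower in IV_PZ, at 4287 ± 584 and 1484 ± 130 (SD, n = 3).

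Aa_G401510.h1 and Aa_G1116930.h11, which both share reads, were highest in III_PZ of the 6 groups. Aa_G401510.h1 had 18062, 12726 and 18873 TPM in III_PZ against 2827, 4804, 2169 and 1455 in IV_AZ_si, a log2 fold change of 2.51 with an SE of 0.33 (adjusted p = 5.95e-06, edgeR) and of 2.90 without replicate 2. Aa_G1116930.h11 had 14714, 11171 and 14091 TPM against 2013, 4117, 2572 and 1639, a log2 fold change of 2.31 with an SE of 0.32 (adjusted p = 1.33e-05, edgeR) and of 2.63 without replicate 2. In both, the highest IV_AZ_si library was replicate 2 and the lowest was replicate 4. Their lengths are 156 and 123 bases, so both values rest on effective lengths of 7.59 and 5.2.

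The next ranks by TPM difference were chosen after their values were seen. Aa_G1109670.h1 had 8354, 3432 and 8602 TPM in III_PZ against 353, 362, 108 and 258 in IV_AZ_si, and Aa_G950580.h1 had 4436, 2644 and 4500 against 242, 195, 61.0 and 193. Their log2 fold changes were 4.61 ± 0.80 and 4.44 ± 0.63 (SE), and in both III_PZ replicate 2 was the lowest of its group and IV_AZ_si replicate 3 the lowest of its own. The ratio of the pair ran from 1.30 to 1.91 in the 7 libraries. Aa_G1109670.h2, with 3345, 1158 and 2922 TPM in III_PZ, was also lowest in replicate 2 of that group, and its call was lost in limma-trend on log2(TPM + 0.1) (adjusted p = 0.0632, range 8.3e-06 to 0.0632 over 18 alternatives). Among longer targets, Aa_G472920.h1 (993 bases) had 2609, 2494 and 2647 TPM in III_PZ against 564, 566, 318 and 400 in IV_AZ_si, a log2 fold change of 2.43 with an SE of 0.15 (adjusted p = 8.94e-10, edgeR). Its level in IV_PZ was 165 to 197 TPM, below every IV_AZ_si library. Aa_G509930.h1 (453 bases, shared reads) had 2382, 2684 and 2465 TPM against 162, 217, 129 and 127.

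Some transcripts of the 7-week perennial zone were as abundant or more so in the perennial zone at 30 weeks. Aa_G206640.h1 had 48.3, 55.2 and 36.8 TPM in III_PZ and 88.1, 182 and 116 in IV_PZ, with no count in the other 13 libraries. It is 162 bases long and the III_PZ values rest on 45 counts, which bound the difference from IV_AZ_si at 19.5-fold or more (adjusted p = 0.00042, edgeR). Aa_G208620.h1, named by the same rule, had 9.12, 12.5 and 2.19 TPM in III_PZ and 8.38 to 13.2 in IV_PZ, with no count in IV_AZ_si. Chosen after their values were seen, at 20 TPM or more in III_PZ, were Aa_G167680.h1, Aa_G4220.h1 and Aa_G348140.h1. Aa_G167680.h1 had 74.1, 84.4 and 75.5 TPM in III_PZ and 150 to 169 in IV_PZ, against 3.59, 4.42, 0.405 and 0.356 in IV_AZ_si. The IV_AZ_si libraries fell into a higher pair, replicates 1 and 2, and a lower pair, replicates 3 and 4, all below III_PZ. The fitted log2 difference of 5.13 ± 0.77 (SE; adjusted p = 4.63e-05, edgeR) was 5.76 without replicate 2.

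Aa_G348140.h1 had 30.9, 27.9 and 28.4 TPM in III_PZ, 60.7 to 67.9 in IV_PZ and 0.587, 2.84, 0.125 and 0.330 in IV_AZ_si. Replicate 2 was the highest of the IV_AZ_si libraries, and the log2 fold change moved from 4.87 ± 0.80 (SE; adjusted p = 7.51e-05, edgeR) to 6.33 without it. Aa_G4220.h1 had 25.1, 24.1 and 22.5 TPM in III_PZ, 34.9 to 40.7 in IV_PZ and 0.559, 1.67, 0.619 and 0.151 in IV_AZ_si, where replicate 2 again was highest. Its log2 fold change was 4.96 ± 0.76 (SE; adjusted p = 6.08e-05, edgeR), and 5.72 without replicate 2. All 3 targets had under 0.2 TPM in every IV_AZ_if library.

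Other transcripts were abundant in III_PZ and nearly gone from the perennial zone at 30 weeks. Chosen after their values were seen, Aa_G188950.h1 (shared reads) had 49.4, 36.1 and 42.0 TPM in III_PZ, 0, 0.075 and 0.211 in IV_PZ, and 0.116, 0.374, 0 and 0.150 in IV_AZ_si. The log2 fold change was 7.98 ± 0.53 (SE; adjusted p = 2.94e-09, edgeR), and 8.77 without replicate 2. Aa_G199530.h1 had 24.6, 26.7 and 14.1 TPM in III_PZ and 0 to 0.106 in IV_AZ_si, and I_PZ held 10 to 13.9 TPM. Its fitted log2 difference was 8.77 ± 0.64 (SE; adjusted p = 7.28e-09, edgeR), or 9.52 without replicate 2. Aa_G797250.h1 (shared reads) had 53.3, 90.8 and 80.1 TPM in III_PZ and 0.492, 3.37, 0.0216 and 0.171 in IV_AZ_si. Replicate 2 was the highest, and the fitted log2 difference of 6.17 ± 1.21 (SE; adjusted p = 0.00055, edgeR) was 8.32 without it.

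Of the targets of at least 100 TPM in III_PZ that the naming rule had not taken, those of largest fold, chosen after their values were seen, were Aa_G766740.h1, Aa_G350700.h1, Aa_G68110.h1 and Aa_G279770.h1. Aa_G279770.h1 had 409, 373 and 272 TPM in III_PZ against 2.53, 4.51, 3.3 and 2.1 in IV_AZ_si, a log2 fold change of 6.76 with an SE of 1.04 (adjusted p = 3.82e-05, edgeR) and of 6.99 without replicate 2. Its IV_PZ libraries held 5.45, 11.6 and 7.74 TPM. Aa_G350700.h1 (219 bases) had 1093, 496 and 1157 TPM in III_PZ, while its IV_AZ_si value rested on 2 counts in replicate 1. The ratio of library-scaled counts was 1835, with a 95% exact Poisson interval from 508 to 15151 that covers counting error only. Aa_G68110.h1 had 194, 109 and 73.3 TPM in III_PZ against 0.135, 1.22, 0.933 and 0 in IV_AZ_si, and 16.7 to 33.9 in IV_PZ. Its log2 fold change was 7.73 ± 0.86 (SE; adjusted p = 9.7e-07, edgeR), and 8.40 without replicate 2. Aa_G766740.h1 (shared reads) had 104, 195 and 82.2 TPM in III_PZ against 0.0501, 0, 0.139 and 0, and no count in IV_PZ.

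The targets with the largest fold toward the annual internode had no count in the perennial zone at 7 or at 30 weeks. Aa_G417010.h1 had 54.4, 45.5, 54.3 and 57.7 TPM in IV_AZ_si, lowest in replicate 2, and no count in III_PZ or IV_PZ. The difference was at least 225-fold lower in III_PZ (adjusted p = 1.38e-07, edgeR), and at least 236-fold without replicate 2. IV_AZ_if held 23.2 to 29.4 TPM. Aa_G495330.h1 had 10.5, 1.90, 12.5 and 11.8 TPM in IV_AZ_si, with replicate 2 well below its mates, and was at least 167-fold lower in III_PZ (adjusted p = 0.000442, edgeR), or 210-fold without replicate 2.

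Aa_G601480.h1 and Aa_G505620.h1 split the annual internode libraries into pairs. Aa_G601480.h1 had 10.5 and 13.8 TPM in IV_AZ_si replicates 1 and 2 and 2.24 and 1.41 in replicates 3 and 4. Aa_G505620.h1 had 8.97 and 9.73 in replicates 1 and 2 and 0.725 and 0.692 in replicates 3 and 4. Neither had a count in III_PZ, and their bounds were at least 206-fold and 81.6-fold lower (adjusted p = 0.0015 and 0.00464, edgeR). Without replicate 2 the bounds were 137-fold and 54.9-fold. Both were nearly without counts in IV_AZ_if and were present in II_PZ, highest in II_PZ replicate 3 at 46.0 and 64.8 TPM.

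The largest difference in TPM toward the annual internode was that of Aa_G499040.h1 (336 bases, shared reads). It had 12002, 12388, 12460 and 12623 TPM in IV_AZ_si and 576, 330 and 358 in III_PZ. The groups were far apart, with a log2 fold change of -4.93 with an SE of 0.37 (adjusted p = 9.44e-09, edgeR), and of -4.93 without replicate 2. IV_AZ_if held 9479 to 11689 TPM and IV_PZ 0 to 2.95, so the 2 annual internodes stood together and the 30-week perennial zone was below the 7-week one. Aa_G253980.h1 had 6885, 7005, 9326 and 10354 TPM in IV_AZ_si against 1679, 1310 and 1361 in III_PZ, a log2 fold change of -2.59 with an SE of 0.16 (adjusted p = 1.41e-09, edgeR). It was higher still in IV_AZ_if, at 18550 to 23062 TPM.

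Aa_G556440.h1 (1479 bases) had 7617, 7997, 8013 and 7469 TPM in IV_AZ_si against 2797, 2706 and 2914 in III_PZ, a log2 fold change of -1.53 with an SE of 0.09 (adjusted p = 1.13e-09, edgeR). IV_AZ_si had its highest level of the 6 groups. Aa_G403610.h1 (237 bases) had 6165, 6494, 6957 and 7012 TPM against 2072, 1802 and 1763, a log2 fold change of -1.88 with an SE of 0.10 (adjusted p = 2.02e-10, edgeR). Its level in IV_PZ, 4935 to 5257 TPM, lay between the groups.

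Further targets lower in III_PZ were chosen after their values were seen. Aa_G248920.h1 and Aa_G248930.h1, which both share reads and have neighbouring identifiers, had 2756 to 3859 and 1952 to 3270 TPM in IV_AZ_si against 523 to 547 and 195 to 237 in III_PZ. Their log2 fold changes were -2.73 ± 0.12 and -3.69 ± 0.15 (SE), and both were low in IV_PZ as well, at 540 to 667 and 256 to 302 TPM. Aa_G300670.h1 and Aa_G997470.h1, which each share reads with some target, stayed at a TPM ratio of 1.04 to 1.41 in all 19 libraries. Aa_G300670.h1 had 4297, 4598, 4133 and 4010 TPM in IV_AZ_si against 1162, 1488 and 1256 in III_PZ, a log2 fold change of -1.77 with an SE of 0.49 (adjusted p = 0.00673, edgeR). Aa_G997470.h1 had 3325 to 3732 TPM in IV_AZ_si against 931 to 1363 in III_PZ, without overlap. Its call (adjusted p = 0.019, edgeR) was lost without III_PZ replicate 1 (0.0778) and without III_PZ replicate 3 (0.0588). The extremes of its 18 alternatives were 4.65e-06 and 0.0778. Outside the comparison it ran from 21.3 to 214 TPM in I_PZ and from 163 to 485 in II_PZ. These groups enter the fitted spread, and their part in its p-value was not tested.

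Aa_G136630.h1, also chosen after its values were seen, had 1323, 1350, 1362 and 1383 TPM in IV_AZ_si against 27.4, 27.0 and 15.2 in III_PZ, a log2 fold change of -5.93 with an SE of 0.26 (adjusted p = 4.1e-11, edgeR). It was abundant at 4 and 5 weeks, at 1411 to 2627 TPM, and at 0.875 to 3.42 TPM in IV_PZ. Aa_G539240.h1 had 172, 175, 185 and 181 TPM in IV_AZ_si against 15, 1.47 and 2.03 in III_PZ, with the highest III_PZ value in replicate 1. Its log2 fold change was -4.90 ± 0.59 (SE; adjusted p = 5.49e-06, edgeR), and it had no count in IV_PZ. Aa_G593160.h1 (shared reads) had 71.5, 50.9, 143 and 264 TPM against 8.84, 0.170 and 0.295, again with III_PZ replicate 1 highest.

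Targets low in the perennial zone at 7 and 30 weeks and higher in both annual internodes included Aa_G332180.h1 and Aa_G821380.h1, named by rule. Both were also present in the younger perennial zone. Aa_G332180.h1 had 0.965 to 3.67 TPM in I_PZ and 0.54 to 2.39 in II_PZ. Aa_G821380.h1 had 0.905 to 1.98 TPM in I_PZ and 2.97 to 6.76 in II_PZ. Aa_G332180.h1 had 4.79, 4.18, 5.53 and 11.8 TPM in IV_AZ_si and no count in III_PZ or IV_PZ, at least 76.4-fold lower in III_PZ (adjusted p = 1.72e-05, edgeR). Aa_G821380.h1 had 19.3, 24.2, 52 and 41.7 TPM in IV_AZ_si, 0.545, 0 and 0.0799 in III_PZ and none in IV_PZ, with a log2 fold change of -7.38 with an SE of 0.64 (adjusted p = 1.72e-07, edgeR). Aa_G67180.h1 and Aa_G615750.h1, also named by rule, were higher in the short annual internode and in the 30-week perennial zone than at 7 weeks. Aa_G67180.h1 (144 bases) had 29.5, 88.3, 66.2 and 10.3 TPM in IV_AZ_si and 94.4 to 241 in IV_PZ, and no count at 4, 5 or 7 weeks, while IV_AZ_if held 0, 16.7 and 4.03. Its IV_AZ_si values rest on 49 counts, a difference of at least 12.6-fold (adjusted p = 0.00402, edgeR). Aa_G615750.h1 had 6.02, 8.19, 3.18 and 3.58 TPM in IV_AZ_si and 1.19, 4.77 and 14.3 in IV_PZ, against 0, 0.187 and 0 in III_PZ (adjusted p = 0.000139, edgeR). Its IV_AZ_if libraries held 0.271, 0.0758 and 0 TPM, so the level near the inflorescence was as low as at 7 weeks. Aa_G163520.h1, chosen after its values were seen, had 57.2, 70.6, 61.5 and 37.5 TPM in IV_AZ_si, 95.4 to 161 in IV_PZ and 0.747, 3.76 and 2.63 in III_PZ, with a log2 fold change of -4.61 with an SE of 0.39 (adjusted p = 1.21e-07, edgeR).

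**Figure D5:**
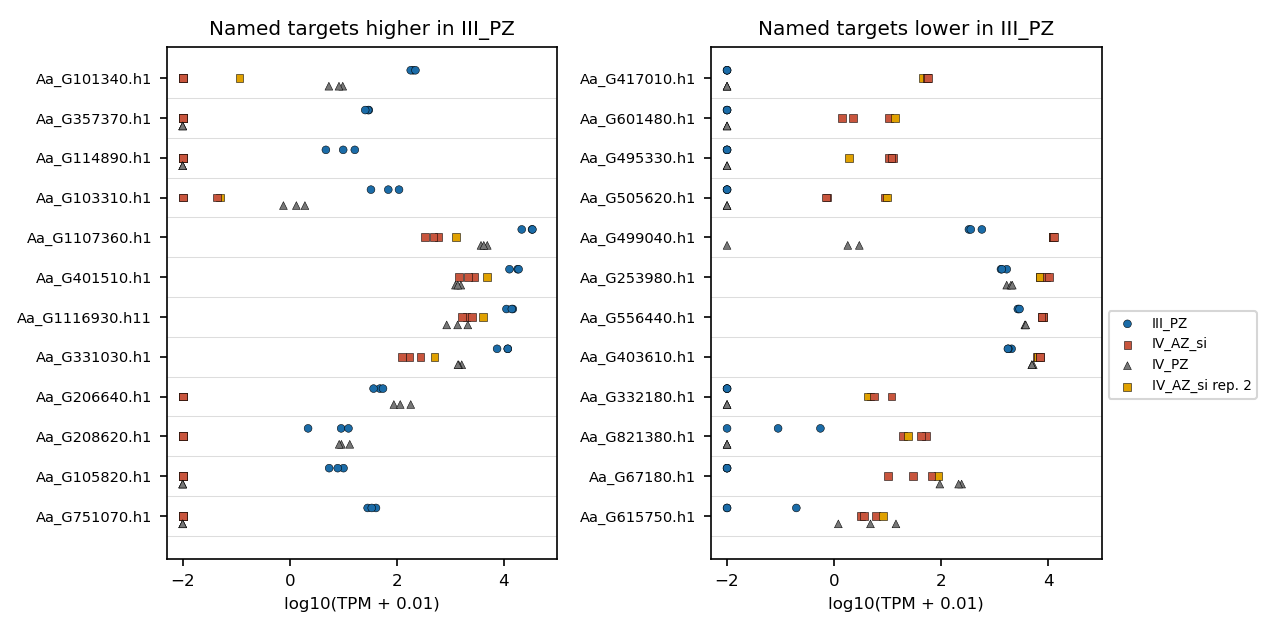
TPM of the named targets in each library of III_PZ (circles), IV_AZ_si (squares, replicate 2 in yellow) and IV_PZ (triangles), as log10(TPM + 0.01), for targets higher (left) and lower (right) in III_PZ. No library of III_PZ overlaps one of IV_AZ_si, which the naming rule required, and IV_PZ lies beside III_PZ for Aa_G206640.h1 and Aa_G417010.h1 but beside IV_AZ_si for Aa_G357370.h1 and Aa_G67180.h1.

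In some targets IV_AZ_si replicate 2 alone set the group's level. Chosen after their values were seen, these were the tested targets in which that library most exceeded its mates. Aa_G748480.h1 had 0.440, 58.2, 4.13 and 0.596 TPM in IV_AZ_si and 27.6, 21.0 and 26.0 in III_PZ, so that replicate 2 was above III_PZ and its mates below. With all libraries the log2 fold change was 0.61 ± 0.93 (SE; adjusted p = 0.629, edgeR), and without replicate 2 it was 3.79 (adjusted p = 0.00027, edgeR), with adjusted p from 0.00027 to 0.875 over its 19 alternatives. The same target held 3165 to 4508 TPM in IV_PZ. Aa_G731640.h1 (shared reads) had 5.70, 81.2, 5.57 and 1.00 TPM in IV_AZ_si, 571, 537 and 586 in III_PZ and 810 to 1187 in IV_PZ. The log2 fold change was 4.55 ± 1.42 (SE; adjusted p = 0.0173, edgeR), and 7.08 without replicate 2. The call was lost in DESeq2 (adjusted p = 0.0799, range 0.00101 to 0.0799 over 18 alternatives).

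Aa_G713460.h2 (shared reads) and Aa_G141670.h1, chosen the same way, had 14.7 TPM (58.3 estimated counts) and 11.2 TPM (2 counts) in replicate 2 and no count in its mates. Their III_PZ values were 4.35, 3.14 and 0 TPM and 0, 5.76 and 0 TPM, and neither passed the test (adjusted p = 0.795 and 0.836, edgeR). Without replicate 2 the sign of both turned, from -0.61 to 6.27 and from -0.48 to 1.83 on the log2 scale, and neither passed (adjusted p = 0.0714 and 0.438, edgeR). The summed counts of Aa_G713460.h2 then gave a bound of 9.56-fold, which covers counting error only. As 1 of its III_PZ libraries had no count either, this is no minimum difference between the groups. The III_PZ value of Aa_G141670.h1 rests on 1 count, under the floor of 3 counts. Of the targets highest in replicate 2 whether tested or not, Aa_G839230.h2, Aa_G351560.h1 and Aa_G257690.h3 had 87.7, 53.0 and 41.9 TPM there and no count in the other 3 IV_AZ_si libraries or in III_PZ. They are 201, 105 and 243 bases long, rest on 57.1, 9 and 71.7 estimated counts, and did not pass the filter on low counts. Aa_G257690.h3 also had 24.9 TPM in IV_AZ_if replicate 1.

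Few targets were present in 1 of the groups and without a count in the other. At a mean of at least 5 TPM, 38 of the 34220 targets were counted in III_PZ with no count in IV_AZ_si, and 60 when replicate 2 was left out. The 22 targets added had counts in replicate 2 alone, with a median of 2.5 and a highest of 33, and 13 of them had 3 counts or fewer. The reverse held for 62 targets, with no count in III_PZ, and for 85 without replicate 2. Leaving out any of several other libraries moved these numbers as much: the 38 became 59 without IV_AZ_si replicate 3 and 64 without replicate 4, and the 62 became 106 without III_PZ replicate 2 and 101 without III_PZ replicate 3. The median coding length was 180 bases in the first set and 147 in the second, and 16 of each passed the filter on low counts. Of the 38, 22 had a count in every III_PZ library, and of the 62, 26 had a count in every IV_AZ_si library.

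Where else these targets occurred differed between the sets. Of the 38, 8 had at least 5 TPM in I_PZ, 7 in II_PZ, 10 in IV_PZ and 1 in IV_AZ_if. Of the 62, 18 had at least 5 TPM in I_PZ, 28 in II_PZ, 16 in IV_PZ and 32 in IV_AZ_if. In each set 7 targets stayed under 1 TPM in all 12 libraries of the other groups.

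The most abundant transcript with little difference between the groups was Aa_G392180.h1. It had 8175, 9131 and 8417 TPM in III_PZ and 7894, 8230, 8480 and 8618 in IV_AZ_si, with overlapping libraries and a log2 fold change of -0.01 with an SE of 0.09 (adjusted p = 0.918, edgeR). Aa_G87790.h1, named by the same rule, had 6763, 7486 and 7074 TPM in III_PZ against 6494, 6164, 5871 and 5907. Its libraries did not overlap, and its fitted log2 difference of 0.16 ± 0.07 (SE; adjusted p = 0.0821, edgeR) passed the threshold in 8 alternatives, with adjusted p from 0.00951 to 0.505 over all 19.

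Library-wide measures of the transcript pool were compared over the libraries. With 3 against 4 libraries the smallest p of an exact permutation test is 0.0286, and the p-values were adjusted over 4 measures. The share of TPM in the 100 most abundant targets was 24.4% ± 1.5 in III_PZ (SD, n = 3) and 22.0% ± 0.43 in IV_AZ_si (SD, n = 4; two-sided exact permutation p = 0.0286, adjusted 0.0762). Targets with at least 1 TPM numbered 21229 ± 151 in III_PZ (SD, n = 3) and 21000 ± 50.8 in IV_AZ_si (SD, n = 4; exact permutation p = 0.0571, adjusted 0.0762). The abundance-weighted mean coding length was 769 ± 7.3 bases in III_PZ and 797 ± 9.0 in IV_AZ_si (exact permutation p = 0.0571, adjusted 0.0762). The effective number of targets, the exponential of the Shannon entropy of the TPM shares, was 4604 ± 399 and 5022 ± 125 (exact permutation p = 0.114, adjusted 0.114). None passed after adjustment, which in a design of this size does not show that the measures were alike. At a minimum of 5 TPM the number of targets was higher by 544 in III_PZ (exact permutation p = 0.0286), and without replicate 2 the smallest p the design allows is 0.1.

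The direction of 3 of these measures turned when short targets were left out. When targets under 300 bases were left out, a choice made after seeing the data, the share of TPM in the 100 most abundant targets differed by -3.4 percentage points, III_PZ minus IV_AZ_si. The effective number of targets was then higher by 1087 and the mean coding length higher by 20.8 bases in III_PZ, each of the 3 with an exact permutation p = 0.0286 before adjustment. The number of targets with at least 1 TPM kept its direction, higher by 260 in III_PZ (exact permutation p = 0.0571).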

How the data were processed

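RNA was sequenced from 19 libraries in 6 groups of 3 or 4, and the 7 libraries of III_PZ and IV_AZ_si were compared. Stranded Illumina TruSeq mRNA libraries were made from total RNA, per the labels' protocols. The authors ran bcl2fastq and kallisto, per the submitters' processing notes, and their versions, like the transcript reference, are not given in the sources used. The deposited library files hold, per the file headers, estimated counts and TPM of 34220 targets with a length and an effective length. TPM values were scaled by the authors to effective length and to the same total in all libraries. Lengths are multiples of 3 in 99.5% of targets, so they are coding lengths.

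Rounded estimated counts entered the quasi-likelihood test of edgeR 4.0.16 (R 4.3.3), with TMM scaling, the default filter (minimum count 10, total 15) and the group as the only term, over all 19 libraries, since the groups then share 1 estimate of the spread. P-values were adjusted by Benjamini-Hochberg over all tested targets and called under 0.05. The fit without IV_AZ_si replicate 2 dropped that library. Standard errors come from the test statistic. Bounds use a floor of 3 counts over a group; bounds, ratios and intervals cover counting error only. Targets are said to share reads where any library's estimate was over 0.001 off a whole count (23.8% of those tested). Library values were compared by exact permutation over 35 divisions.

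Targets open to naming were called, reached 5 TPM in the higher group's mean and did not overlap, which held for 3959 targets higher and 4330 lower. Per direction these were the 4 of largest fold, the 4 of largest TPM difference, 2 whose IV_PZ level lay at least as far from IV_AZ_si as III_PZ, and 2 whose IV_PZ mean was not on the III_PZ side; added were the 2 most abundant steady targets and the 3 highest in IV_AZ_si replicate 2 against its mates. Members, lists and tests were chosen with earlier results of these data known. Gene lists could not be matched to the identifiers and were not tested.

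Replicates differed by more than sampling noise (chi-square per degree of freedom at least 8.19). The fit was tested on simulated data. Alternatives used RLE or TPM-scale size factors, DESeq2 1.42.0, limma-trend (limma 3.58.1) on log2 values, other filters, other target sets, a replicate block and each replicate left out.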

Additional observations from a re-analysis of the deposited data

Results flagged for a closer look

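Of 71 values checked in the 4 IV_AZ_si libraries, 12 had a highest library set apart, its gap to the next divided by the group's range exceeding Dixon's critical value for 4 samples. Chance flags about 1 in 20 groups of this size, and a group with a single library above 0 always gives 1.000. The ratio was 1.000 for Aa_G101340.h1, at 0.105 TPM in replicate 2 on 6 counts, and for Aa_G350700.h1, at 2.12 TPM in replicate 1 on 2 counts. It was 0.830 for Aa_G348140.h1 (2.84 TPM in replicate 2) and 0.859 for Aa_G797250.h1 (3.37 TPM in replicate 2). The effective number of targets was set apart in replicate 1, at 5210, with a ratio of 0.921.

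The other 7 values were picked because replicate 2 was high in them, so their ratios describe that choice. The ratio was 0.936 for Aa_G748480.h1 (58.2 TPM in replicate 2) and 0.941 for Aa_G731640.h1 (81.2 TPM). It was 1.000 for Aa_G713460.h2 (14.7 TPM), Aa_G141670.h1 (11.2 TPM on 2 counts), Aa_G839230.h2 (87.7 TPM), Aa_G351560.h1 (53.0 TPM) and Aa_G257690.h3 (41.9 TPM). Aa_G351560.h1 had the same counts in every library as 2 other targets, and Aa_G257690.h3 as 1 other.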

How the results depend on the processing

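The number of called targets stayed within 1.5 times of 5096 higher and 6007 lower under every scaling, test, filter, set of targets and left-out library, and a minimum fold of 2 left 2547 and 2259, or 4806 of 11103. With each replicate of the 2 groups left out in turn, 4657 to 5237 targets were higher, 4765 to 5759 lower and 9719 to 10616 in either direction, and at 2-fold or more 2398 to 2587, 2032 to 2277 and 4519 to 4828. With the replicate block 4688 targets were higher and 5491 lower. The labels do not say whether the replicate numbers pair the samples. Same-numbered libraries of III_PZ and IV_AZ_si correlated at -0.03, -0.04 and -0.01 in their deviations from the group means. So few libraries cannot exclude a pairing. More targets were higher than lower in 13 of 19 alternatives: with RLE and TPM-scale size factors, with no filter (5437 and 5360), in the fit of the 2 groups alone (5487 and 5333), in limma-trend on log2(TPM + 1) (5609 and 5176, and 5924 and 5353 with no filter) and on log2(TPM + 0.1) (5398 and 5110), without targets that share reads (4349 and 4334), without I_PZ replicate 3 (5529 and 5442), and without any 1 of the III_PZ replicates or IV_AZ_si replicate 4.

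The TPM share that differed was 21.9% in counts scaled to library size and 24.2% without targets under 300 bases, the latter chosen after seeing the data. Targets on in III_PZ with no count in IV_AZ_si numbered 166 at a minimum of 1 TPM, 17 at 10 TPM and 109 with up to 3 counts allowed, and 38 to 64 with a replicate left out; the reverse numbers were 230, 25 and 142, and 70 to 106. Targets with at least 1 TPM differed by 235 in the targets of the series table and by 544 at 5 TPM (exact permutation p = 0.0286 each). The share of the 100 most abundant targets differed by 0.672 points in the series table, by -0.022 over the 1000 most abundant and by -3.4 without targets under 300 bases, where the effective number differed by 1087 and the mean coding length by 20.8. The cause was not tested. Of 1146 alternatives of 62 named fold changes, 1107 kept their sign and their side of the threshold, 5 lost a call, 9 gained one and 25 turned in sign, 0 of these with a call on either side. Aa_G392180.h1, at -0.01, was at 0.03 with RLE size factors, DESeq2, no filter, the 2 groups alone and no targets that share reads, at 0.02 with the replicate block, at 0.05 with TPM-scale size factors and in each limma-trend fit, and between -0.05 and 0.06 with a replicate left out. Aa_G713460.h2, at -0.61, was at 0.50 in limma-trend on log2(TPM + 1) with and without the filter, at 1.70 on log2(TPM + 0.1) and between -1.28 and 6.27 with a replicate left out. Aa_G141670.h1, at -0.48, was at 0.02, 0.02 and 0.25 in these fits and between -2.3 and 1.83. For 7 named targets DESeq2 gave no adjusted p.

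Depth limits targets on few counts, short ones above all, whose TPM rests on effective lengths of a few bases. Reads shared between targets, 3 or 4 libraries per group and pooled plants limit the rest.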
